A study of Oryza sativa with 36 samples.

Results

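Endo-beta-mannanases are secreted wall enzymes that cut the backbone of mannans, hemicelluloses built from mannose or from mannose and glucose. They are best known from seeds: in tomato and lettuce they act while the endosperm around the root tip weakens before germination, and in cereals they act in the germinating grain. In leaves mannans are minor wall polymers, laid down by mannan synthases of the CSLA family from GDP-mannose, a sugar nucleotide that also feeds ascorbate synthesis. The genes described here are those whose name or synonym in the rice annotation is MAN with 1 digit, without regard to case or a leading Os. The annotation named 5 such genes, of which 4 had a probe set on the array, out of 17905 genes with a probe set of their own. These were MAN1 (LOC4327860, probe set Os.10006.1.S1_at), MAN4 (LOC4334653, Os.7260.1.S1_x_at), MAN6 (LOC4340863, OsAffx.15524.1.S1_at) and MAN7 (LOC4349615, Os.25109.1.S1_at). No probe set was matched to MAN2. Each gene was thus read by 1 probe set, and the ending x_at of the MAN4 probe set means that some of its probes can match other transcripts.

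The samples were leaves of S3-stage rice seedlings raised at 29 °C. LTH (Li-Jiang-Xin-Tuan-Hei-Gu) is a chilling-tolerant japonica genotype and IR29 a chilling-sensitive indica genotype, and both grew side by side in the same plates. Each genotype had a control kept at 29 °C, chilled groups held at 4 °C over 2, 8, 24 or 48 h, and seedlings that recovered at 29 °C for 24 h once 48 h of cold had ended. All 12 groups had 3 biological replicates, which gave 36 Affymetrix rice arrays. The methods describe control leaves taken at each time, but the labels name 1 control group per genotype without a time. In changes against control, time of day and treatment thus cannot be told apart for a gene that follows the clock. By their stated times the 24 h, 48 h and recovery groups lie whole days after the start of cold. If all groups entered the cold together, comparisons among these groups share a time of day. The 2 h and 8 h groups then differ from them and from each other in time of day. In steps from or to 2 h or 8 h, time of day and length of cold thus cannot be told apart either. The array was designed mainly on japonica transcripts, and the part of probe mismatch in levels of IR29 was not tested. In such bulk leaf samples fewer cells of a type and less RNA per cell cannot be told apart.

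Intensities below are the deposited normalized values on a linear scale, and changes are differences of log2 intensity. Levels of different genes are not compared, since probe sets differ in brightness. A change was called when it was at least 2-fold at a Benjamini-Hochberg adjusted p below 0.05 in limma, over all 57258 probe sets. Replicate arrays of a group correlated at 0.913 to 0.977 over all probe sets. The summed leaf markers (the photosynthesis genes RCA, RBCS and CAB2R) stood between 6420 and 16300 on every array. They were lower than in the controls, at 14200 to 14700 in LTH and 14200 to 15900 in IR29, at 48 h of cold (8390 to 9090 in LTH, 7130 to 11700 in IR29) and in IR29 recovery (6420 to 8310). Most of the fall in LTH at 48 h lay in CAB2R (mean 5290 to 805). RCA went from 5200 to 4140 there and RBCS from 3990 to 3700. In IR29 at 48 h CAB2R went from 5520 to 2360, RCA from 5380 to 3890 and RBCS from 4140 to 3120. In IR29 recovery these means were 2000, 3340 and 2100. In each of these groups 1 of the 3 genes was called lower. The summed shoot meristem markers, 4 KNOX homeobox genes including OSH1, ranged from 11.3 to 290 over the arrays and differed between replicates, most of all in LTH, and their values are given beside the genes they moved with. Pollen marker C6 stayed at or below 5.91, the root marker PT2 lay between 5.19 and 87.6 and is given beside MAN7, and the 6 seed storage markers summed to 160 to 544.

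MAN7 was the member that responded most to cold. Its level rose in LTH at each chilling time, ended 62.6-fold above the control at 48 h, and was close to the control again 24 h after rewarming. IR29 showed a rise of the same direction that reached 5.09-fold at 48 h. The increase was larger in LTH than in IR29 at 8, 24 and 48 h by a test of that difference.

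In the LTH controls the MAN7 intensities were 29.7, 19.0 and 29.9. After 2 h at 4 °C they were 71.7, 132 and 89.2, and after 8 h they were 236, 219 and 133. Every array at these times lay above every control array. At 24 h the replicates read 855, 428 and 779, and at 48 h they read 1799, 1428 and 1610.2. The 48 h arrays lay above all 24 h arrays, and the 24 h arrays above all 8 h arrays, so the ranges separated at each of these steps. The leaf marker sum of the 48 h arrays, 8390 to 9090, lay below that of the controls (14200 to 14700), mostly through CAB2R. In recovery the intensities were 41.8, 35.5 and 40.04, all slightly above the 3 controls and all below the 2 h arrays.

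The IR29 controls gave 31.5, 30.6 and 31.3 for MAN7. The values were 56.7, 65.3 and 65.4 after 2 h, and 38.2, 54.2 and 50.6 after 8 h. The 8 h arrays thus lay below the 2 h arrays, but this step down was not called (log2 change -0.40, SE 0.27, adjusted p = 0.39 in limma), and it was 0.36 (adjusted p = 0.7) with the shoot meristem marker sum as a covariate. That sum was 274 to 290 in IR29 at 8 h and 13.0 to 25.0 at 2 h. At 24 h the 3 arrays gave 102, 81.1 and 89.9, and at 48 h they gave 152, 244 and 107. The 48 h group was the most uneven IR29 group for this gene, with a highest array 2.27 times its lowest. Recovery brought the intensities to 31.0, 41.8 and 34.6, which overlapped the controls.

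**Figure D1:**
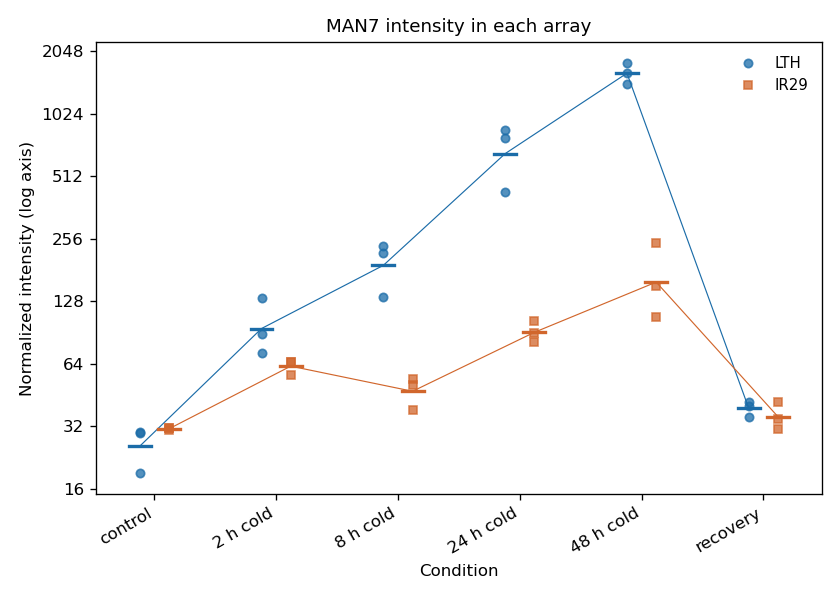
Normalized MAN7 intensity (log axis) in each of the 36 arrays by condition; circles are LTH, squares are IR29, short bars are the mean of log2 values of 3 arrays, and lines join these means. By arithmetic mean, LTH climbed from 26.2 in the control to 1610 at 48 h and fell to 39.1 in recovery, while IR29 reached 168 at 48 h. The bars, as means of log2 values, can lie somewhat lower than these.

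Ordered by mean, the 12 groups ran from LTH at 48 h (1610 ± 186, SD, n = 3), LTH at 24 h (687 ± 228) and LTH at 8 h (196 ± 55.1) through IR29 at 48 h (168 ± 69.5) and LTH at 2 h (97.7 ± 31.2) to IR29 at 24 h (91.1 ± 10.7). IR29 at 2 h (62.5 ± 5.01) and 8 h (47.7 ± 8.39), the recovery groups of LTH (39.1 ± 3.26) and IR29 (35.8 ± 5.50), and the controls of IR29 (31.1 ± 0.463) and LTH (26.2 ± 6.25) followed. Of the 11 pairs of neighbours in this order, 6 overlapped in their ranges. The IR29 arrays at 48 h covered about the same range as the LTH arrays at 8 h. Among all probe sets of the array, MAN7 was brighter than 62.4% in the LTH control and than 98.7% in LTH at 48 h.

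Against the control, the log2 changes of MAN7 in LTH were 1.88, 2.89, 4.68 and 5.97 at 2, 8, 24 and 48 h (SE 0.27, largest adjusted p = 5.8e-06, limma). Only 47 probe sets, 0.0821% of the array, rose more than MAN7 in LTH at 48 h. In IR29 the changes were 1.00 at 2 h (adjusted p = 0.0064), 0.60 at 8 h (adjusted p = 0.12, not called), 1.54 at 24 h (adjusted p = 5.1e-05) and 2.35 at 48 h (adjusted p = 5.1e-08). The IR29 value at 2 h sat on the 2-fold limit: it became 0.99 without IR29 control replicate 2 and 0.97 without IR29 2 h replicate 2 or 3, each no longer called at 2-fold. In recovery the log2 change was 0.61 in LTH (adjusted p = 0.31) and 0.19 in IR29 (adjusted p = 0.67), neither called.

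Along the LTH course, MAN7 rose by a log2 step of 1.79 from 8 to 24 h (SE 0.27, adjusted p = 0.0013) and by 1.29 from 24 to 48 h (adjusted p = 0.015). Background for these steps was low, with 0.365% and 0.559% of all probe sets called in either direction. The later step was not called without LTH 24 h replicate 2 (0.98, adjusted p = 0.066) or without LTH 48 h replicate 1 (1.20, adjusted p = 0.089). Neither step was called by a fit of only the groups compared (adjusted p = 0.64 and 0.6) or by the methods' t-test after adjustment (0.94 and 0.96). The step from 2 to 8 h in LTH (1.01, adjusted p = 0.089, background 0.428%) was not called, but was so with the meristem covariate (1.33, adjusted p = 0.0037). Nor were those between neighbouring times in IR29 (-0.40, 0.94 and 0.80, background 7.25%, 1.30% and 0.279%). Over the whole cold period, from 2 to 48 h, MAN7 alone of the 4 genes was called, with a log2 rise of 4.08 in LTH (adjusted p = 2.6e-11, background 12.3%) and 1.34 in IR29 (adjusted p = 8e-04, background 10.1%). The IR29 value was not called by a fit of only the groups compared (adjusted p = 0.059), and its adjusted p ran from 1.4e-05 to 0.38 over the alternatives.

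The genotypes started from close MAN7 levels and moved apart in the cold. Every LTH control array (at most 29.95) lay below every IR29 control array (at least 30.58), the reverse of the order in the cold. LTH minus IR29 was -0.28 in the controls (95% interval -0.84 to 0.28, adjusted p = 0.68) and 0.60 at 2 h (adjusted p = 0.15). The difference grew to 2.01 at 8 h (adjusted p = 1.6e-06), 2.86 at 24 h (adjusted p = 2.1e-09) and 3.34 at 48 h, which is 10.1-fold (adjusted p = 7.9e-11, SE 0.27 throughout). After recovery it was 0.13 (95% interval -0.42 to 0.69). At each time in the cold every LTH array exceeded every IR29 array, by a narrow margin at 2 h, where the lowest LTH array read 71.7 and the highest IR29 array 65.4.

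Tested as an interaction, the LTH response of MAN7 exceeded the IR29 response by 0.88 at 2 h (SE 0.39, adjusted p = 0.31, not called), 2.29 at 8 h (adjusted p = 0.00056), 3.14 at 24 h (adjusted p = 7.4e-06) and 3.62 at 48 h (adjusted p = 4.6e-07). At 48 h 189 probe sets, 0.330% of the array, had a larger difference in this direction. The genotypes came together on rewarming. From 48 h of cold to recovery MAN7 fell by 5.36 on the log2 scale in LTH and by 2.15 in IR29 (adjusted p = 4.6e-15 and 1.5e-07), and the difference, LTH minus IR29, was -3.21 (SE 0.39, adjusted p = 2.6e-07), a comparison added after the values were seen.

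**Figure D2:**
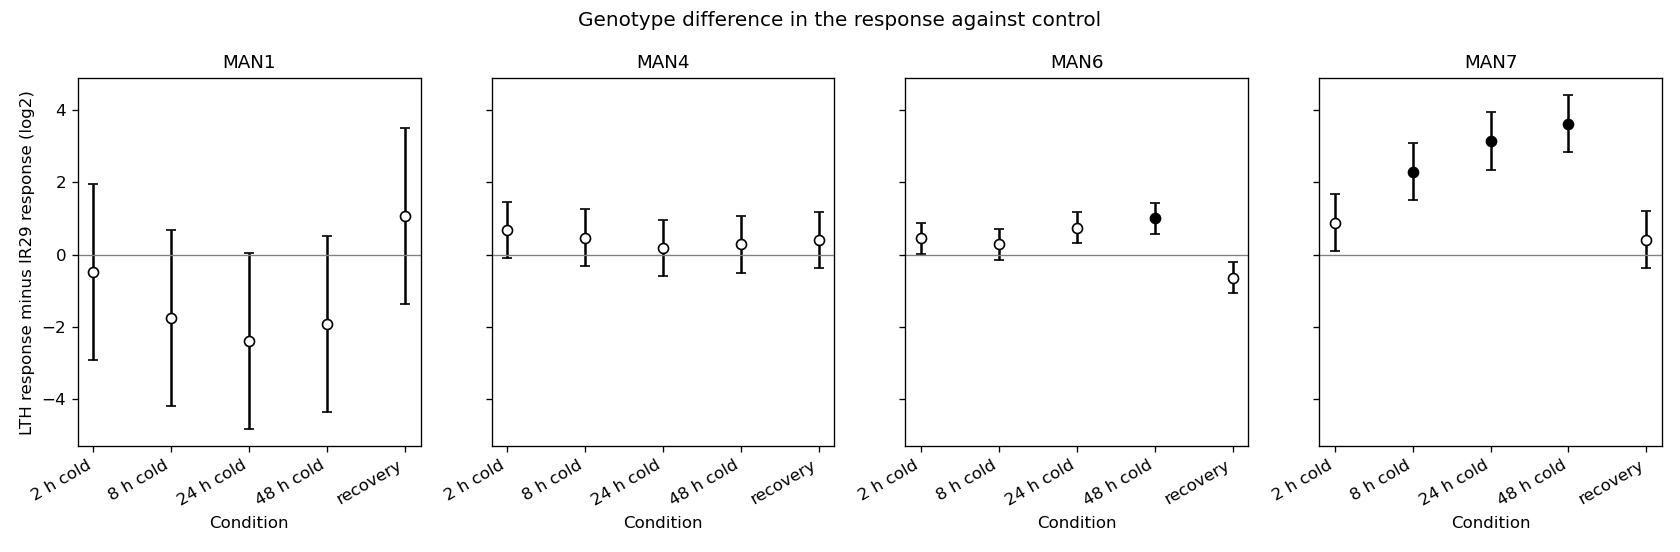
Log2 difference between the LTH and IR29 responses against control for each gene and condition, with 95% confidence intervals from limma; filled points were called, open points were not. MAN7 rises to 3.62 at 48 h, MAN6 is called at 48 h only (1.01), and the intervals of MAN1 are the widest.

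MAN6 moved little but in opposite directions in the genotypes. None of its changes against control reached 2-fold, yet its 48 h response and its response to rewarming differed between LTH and IR29. Its replicates were the closest of the 4 genes, with a pooled log2 SD of 0.160, smaller than that of most probe sets of like brightness, of which 14.1% had a smaller one.

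LTH control intensities of MAN6 were 203, 196 and 196, and the 48 h arrays gave 308, 259 and 263. The 48 h arrays lay above all arrays of the control. In between, the LTH arrays ranged from 166 to 212 at 2 h, from 199.8 to 278 at 8 h and from 228 to 249 at 24 h. The LTH recovery arrays, at 209, 188 and 193, overlapped the control.

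In IR29 the control arrays of MAN6 read 227, 258 and 221, and the 48 h arrays 165, 133 and 197. The 48 h arrays lay below all controls, the reverse of LTH. The 2 h arrays (145 to 190.2) and the 24 h arrays (151 to 187) were also below the controls, whereas the 8 h arrays (208 to 235) overlapped them. In recovery the intensities were 347, 402 and 338, higher than any other array of either genotype, in a group with a leaf marker sum of 6420 to 8310 against 14200 to 15900 in its control.

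The log2 change of MAN6 at 48 h was 0.48 in LTH (adjusted p = 0.012) and -0.53 in IR29 (adjusted p = 0.0056), both past the p threshold and short of 2-fold (SE 0.15, limma). IR29 values at 2, 8 and 24 h were -0.51, -0.06 and -0.48, with adjusted p = 0.011, 0.83 and 0.015. In LTH at those times they were -0.05, 0.22 and 0.26, with a smallest adjusted p of 0.20. The interaction was 0.74 at 24 h (adjusted p = 0.026, under 2-fold) and 1.01 at 48 h (SE 0.21, 95% interval 0.58 to 1.43, adjusted p = 0.0016). That value is at the 2-fold limit. It ranged from 0.86 to 1.14 over the alternatives tried, with adjusted p up to 0.016, and lay under 2-fold when any of 5 single arrays was left out.

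After rewarming MAN6 stood 0.62 above the control in IR29 (adjusted p = 0.0015, below 2-fold) and at -0.01 in LTH (adjusted p = 0.99). From 48 h of cold to recovery it rose 2.22-fold in IR29 (log2 change 1.15, adjusted p = 1.8e-07) and changed by -0.49 in LTH (adjusted p = 0.0093, below 2-fold). The difference in rewarming, LTH minus IR29, was -1.64 (SE 0.21, adjusted p = 6.4e-07). Direct comparison gave LTH minus IR29 values of -0.24 in the controls, 0.76 at 48 h (adjusted p = 0.00022) and -0.88 in recovery (adjusted p = 2.4e-05), so the order of the genotypes turned between cold and recovery, with no difference of 2-fold at any time. At 48 h and in recovery the ranges of the genotypes did not overlap.

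MAN4 fell in both genotypes in the cold and was lowest after rewarming. The 2-fold rule was met in IR29 at 2 and 48 h and in recovery of both genotypes. No difference between the genotypes in its response was called. Its brightest array reached 68.9.

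LTH control intensities of MAN4 were 68.9, 55.0 and 45.4, those at 48 h were 31.6, 28.5 and 32.3, and those in recovery 26.5, 19.4 and 30.1. Both later groups lay below every control. The arrays at 2, 8 and 24 h ranged from 26.9 to 47.5. In IR29 the controls were 55.7, 53.3 and 41.8, and all 15 arrays of the other groups lay below them, at 36.5 or less. Among these the 48 h arrays gave 25.2, 21.2 and 21.6, and the recovery arrays 16.2, 20.9 and 14.4, so the recovery arrays lay below those at 48 h.

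In IR29 the log2 changes of MAN4 were -1.23, -0.79, -0.93 and -1.14 at 2, 8, 24 and 48 h (SE 0.27, adjusted p = 0.00088, 0.032, 0.009 and 0.0012, limma). The value at 2 h was -0.89 without IR29 2 h replicate 3, whose intensity of 13.2 was the lowest of all, and then fell short of 2-fold. Nor was the 2 h change called by the methods' t-test, with or without adjustment. In LTH they were -0.55, -0.33, -0.75 and -0.86 (adjusted p = 0.17, 0.48, 0.037 and 0.014), none of them 2-fold. In recovery the change was -1.16 in LTH (adjusted p = 0.011) and -1.56 in IR29, a 2.95-fold decrease (adjusted p = 3.9e-05). The LTH value was not called without LTH control replicate 1 (adjusted p = 0.08) or LTH recovery replicate 2 (-0.98, adjusted p = 0.077). Differences between the genotypes in response ran from 0.18 to 0.68 (smallest adjusted p = 0.48), and at 48 h the 95% interval was -0.50 to 1.07. From 48 h of cold to recovery MAN4 did not return towards the control in either genotype (log2 changes -0.30 and -0.42, adjusted p = 0.44 and 0.25).

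MAN1 was the most variable member between replicates. It was called lower in LTH at 24 h of cold and in IR29 recovery. The decrease in IR29 recovery was 13.1-fold with no overlap of the ranges. In LTH the ranges were also apart from the control at 2 h, at 48 h and in recovery, though none of these decreases was called. The decrease in LTH at 24 h rested on arrays that differed among themselves by 21.3 times.

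In LTH the MAN1 intensities were 213, 266 and 179 in the control and 12.0, 188 and 8.82 at 24 h. The second of these 24 h arrays lay within the range of the controls. At 8 h the arrays gave 51.8, 46.8 and 267, at 48 h 26.4, 44.8 and 167, and in recovery 16.0, 85.9 and 31.3. In each of these groups 1 array stood well above the other two. At 2 h the picture was the reverse, with 135 and 137 beside a single low array of 30.6.

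In IR29 the controls gave 113, 276 and 76.9 for MAN1, and the cold groups together ranged from 57.5 to 256. All the cold groups overlapped the controls. The recovery arrays, at 8.35, 13.2 and 9.78, lay below every other IR29 array and were close to each other. In the order of group means only this lowest group (10.4 ± 2.48, SD, n = 3) was apart from its neighbour, LTH recovery (44.4 ± 36.8). The other 10 pairs of neighbours overlapped.

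Log2 changes of MAN1 against control were -1.39, -1.32, -3.00 and -1.89 in LTH at 2, 8, 24 and 48 h (SE 0.84), with adjusted p = 0.28, 0.32, 0.0068 and 0.086 in limma. The 24 h value became -2.41 (adjusted p = 0.057) without LTH 24 h replicate 1 and -2.19 (adjusted p = 0.078) without replicate 3, neither called, and a fit of only the groups compared gave adjusted p = 0.089. Without replicate 2 it was -4.39 (adjusted p = 3.2e-05), and with the meristem marker sum as a covariate -2.32 (adjusted p = 0.00083), both called. Leaving out LTH 24 h replicate 2 moved the difference from IR29 at that time from -1.70 (adjusted p = 0.17) to -3.10 (adjusted p = 0.0025) and the interaction from -2.39 (adjusted p = 0.26) to -3.79 (adjusted p = 0.013). In IR29 the changes in the cold lay between -0.89 and 0.42, with no adjusted p under 0.51. In recovery the change was -3.71 in IR29 (adjusted p = 0.00097) and -2.63 in LTH (adjusted p = 0.089, not called), and the interaction was 1.08 with a 95% interval of -1.35 to 3.51. The LTH recovery value was called in 3 of 18 alternatives, among them without LTH recovery replicate 2 (-3.27, adjusted p = 0.046). The LTH 48 h value was called in 4 of 18. With the meristem covariate the IR29 recovery value was -2.77 (adjusted p = 0.00012). The meristem marker sum was 26.6 to 48.7 in the IR29 control and 14.1 to 19.0 in recovery, and the leaf marker sum was also lower there, as given above. From 48 h of cold to recovery the log2 change in IR29 was -3.73 (adjusted p = 6e-04).

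The pooled log2 SD of MAN1 was 1.12, larger than that of 96.4% of the 4203 probe sets of like brightness, whose median was 0.345. MAN4 (0.320) and MAN7 (0.341) were not unusual in this respect, with 32.5% and 55.1% of like probe sets below them. The shoot meristem markers moved with MAN1 between replicates, most clearly in some LTH groups. Their sum was 15.5, 268 and 19.2 in the 3 LTH arrays at 24 h, where MAN1 was 12.0, 188 and 8.82. At 8 h in LTH the sum was 39.4, 31.5 and 189, and in LTH recovery 11.3, 179 and 17.9, each time highest in the array where MAN1 was highest. Over all 36 arrays, after the group means were taken out, log2 MAN1 and the log2 marker sum correlated at r = 0.80, a description across arrays that share groups of 3. OSH1, the defining marker, had group means from 1.57 to 114.

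Correlation with the meristem markers was negative for MAN7, at -0.65, and weak for MAN4 (-0.08) and MAN6 (0.29). In the LTH array of 24 h with the marker sum of 268, MAN7 was 428 against 855 and 779 in the other two. MAN7 also followed the seed storage marker sum between replicates (r = 0.74). That sum was 321 to 333 in LTH controls, 305 to 364 at 2 h and 179 to 210 at 48 h. The root marker PT2 went with MAN7 less closely (r = 0.51). PT2 was 20.7 to 25.8 in LTH controls, at most 19.0 at 2 h, 45.9 to 60.8 at 48 h and 5.19 to 24.3 in recovery, and in IR29 it was 15.4 to 20.5 in controls, 16.4 to 87.6 at 48 h and at most 15.3 in recovery. It was called lower from 48 h to recovery in both genotypes, as MAN7 was, but not called higher at 48 h against control in either. PT2 was also called higher from 2 to 48 h in LTH (1.90), not in IR29 (0.62), and higher in LTH than in IR29 at 24 h (1.63). No genotype difference in its response was called. Among the members themselves the correlation between replicates was -0.59 for MAN1 with MAN7 and between -0.39 and 0.49 for the other pairs. With the marker sum as a covariate, an alternative chosen after the data were seen, MAN7 was still called in LTH at all 4 times, its interaction was still called at 8, 24 and 48 h, and its change in IR29 was 0.80 at 2 h, no longer 2-fold, and 1.16 at 8 h, now called (adjusted p = 0.0014). For MAN1 the same covariate turned the change in IR29 at 8 h from 0.42 to -1.83 (adjusted p = 0.032), a group whose marker sums of 274 to 290 were the highest of the study. The covariate had the same slope in both genotypes, and whether that slope holds in IR29 was not tested. The part of tissue makeup in these values, and in those that moved with the leaf or root markers, was not tested further.

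**Figure D3:**
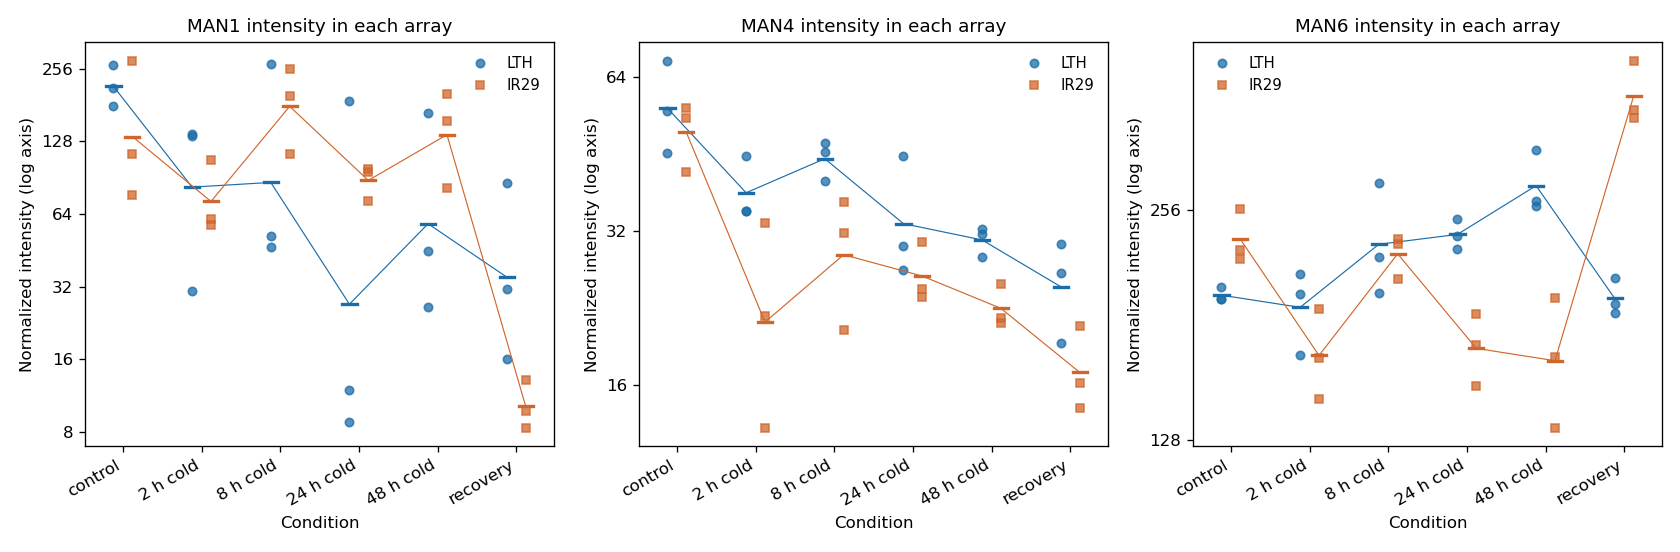
Normalized intensity (log axis, a different range in each panel) of MAN1, MAN4 and MAN6 in each array by condition; circles are LTH, squares IR29, short bars the mean of log2 values of 3 arrays. MAN1 spreads from 8.82 to 188 within LTH at 24 h, MAN4 falls in both genotypes, and MAN6 is highest in IR29 recovery (338 to 402).

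**Figure D4:**
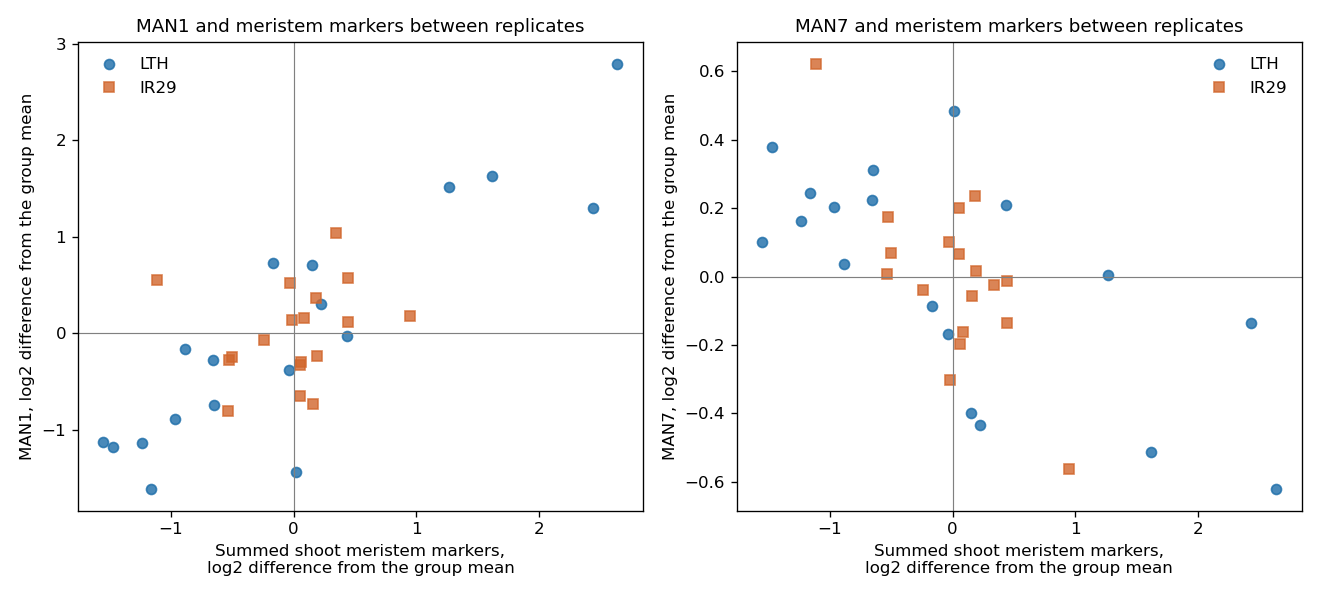
Deviation of log2 MAN1 (left) and log2 MAN7 (right) from the group mean against that of the summed shoot meristem markers, 1 point per array (18 arrays of LTH as circles, 18 of IR29 as squares). MAN1 goes up with the markers (r = 0.80) and MAN7 goes down (r = -0.65), with the widest spread in LTH.

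Counted over the 4 genes, calls should be read against the share of all probe sets called in the same comparison. In LTH 1 gene (MAN7) was called higher at each of the 4 chilling times, and 1 lower (MAN1) at 24 h, where 13.6%, 13.8%, 20.4% and 25.5% of all probe sets were called in either direction at 2, 8, 24 and 48 h. In IR29 MAN7 was called higher at 2, 24 and 48 h and MAN4 lower at 2 and 48 h, none at 8 h, beside a background of 16.5%, 15.2%, 19.9% and 24.4%. In recovery 1 of 4 was called in LTH (MAN4), where the background was 2.56%, and 2 of 4 in IR29 (MAN1 and MAN4), where it was 20.7%. Between the genotypes no member was called in the controls (background 7.50%), at 2 h (11.2%) or in recovery (18.9%), and MAN7 alone at 8, 24 and 48 h (11.2%, 14.7% and 15.8%). The interaction called MAN7 at 8 and 24 h and both MAN6 and MAN7 at 48 h, against 2.85%, 6.11% and 8.71%, and none at 2 h (1.59%) or in recovery (9.01%). From 48 h of cold to recovery 1 of 4 was called in LTH (background 26.0%) and 3 of 4 in IR29 (29.2%), and the genotype difference in rewarming called 2 of 4 (18.5%). The median change of the 4 genes was -0.19 in LTH and -0.25 in IR29 at 48 h, beside 0.01 and 0.00 over all probe sets.

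Among the mannan synthase genes, CSLA7 and CSLA9 were called higher in the cold in IR29, with no genotype difference in response called. Of 6 CSLA genes in the annotation 4 had probe sets, and in LTH none was called at 48 h, when MAN7 was at its highest. In IR29 CSLA7 and CSLA9 were called higher at 8, 24 and 48 h (2 of 4 at 48 h, background 24.4%). In IR29 recovery CSLA1 and CSLA5 were called lower (2 of 4, background 20.7%). From 48 h of cold to recovery all 4 were called lower in IR29 (background 29.2%), with CSLA7 at -1.71 and CSLA9 at -3.84, and 1 of 4, CSLA7 at -1.41, in LTH (background 26.0%). MAN7 was called lower in this step too.

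CSLA7 intensities in IR29 were 36.1, 66.0 and 33.6 in the control and 241, 94.5 and 381 at 48 h, a log2 change of 2.25 (SE 0.56, adjusted p = 0.0019). In LTH the 48 h arrays gave 130, 97.0 and 289 against 89.9, 74.4 and 53.8 in the control, a change of 1.11 that was not called (adjusted p = 0.13), although CSLA7 was higher at 48 h than at 2 h there (1.69, adjusted p = 0.031). CSLA9 changed by 3.10 in IR29 (adjusted p = 0.03) and by 1.73 in LTH (SE 1.10, adjusted p = 0.25) at 48 h. In IR29 the CSLA9 arrays gave 197, 15.8 and 351 at 48 h against 7.49, 32.6 and 7.18 in the control, so the ranges overlapped. The meristem marker sums of these 48 h arrays were 36.1, 15 and 62.6, lowest where CSLA9 was lowest. For neither gene was a genotype difference in response called, so a call in IR29 alone does not show that the genotypes differ. CSLA1, which the annotation also lists under the synonym CSLA9, changed by -2.44 in LTH at 2 h (adjusted p = 0.048) and by -3.97 in IR29 recovery (adjusted p = 0.00079). CSLA5 changed by -1.25 in LTH at 2 h (adjusted p = 0.0011), and its response at 24 h, LTH minus IR29, was -1.46 (adjusted p = 0.017). Between replicates CSLA1, CSLA7 and CSLA9 followed the meristem marker sum (r = 0.88, 0.87 and 0.85 over 36 arrays), and CSLA5 did so weakly (0.18). In IR29 that sum was 26.6 to 48.7 in the control, 274 to 290 at 8 h, 41.8 to 81.8 at 24 h and 15 to 62.6 at 48 h. The CSLA changes were not tested with the marker sum as a covariate.

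PMM, a phosphomannomutase on the route to GDP-mannose, was the only gene found for mannose supply. Like MAN4, PMM was read by an x_at probe set, some probes of which can match other transcripts. Between control and 48 h its mean went from 309 down to 217 in LTH, whereas in IR29 it went from 271 up to 514 (log2 changes -0.51 and 0.90, adjusted p = 0.15 and 0.0079, both under 2-fold). The response difference was -1.18 at 24 h (adjusted p = 0.049) and -1.41 at 48 h (SE 0.37, adjusted p = 0.012), opposite in sign to that of MAN7. PMM also followed the meristem markers between replicates, at r = 0.73, and was not tested with their sum as a covariate.

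**Figure D5:**
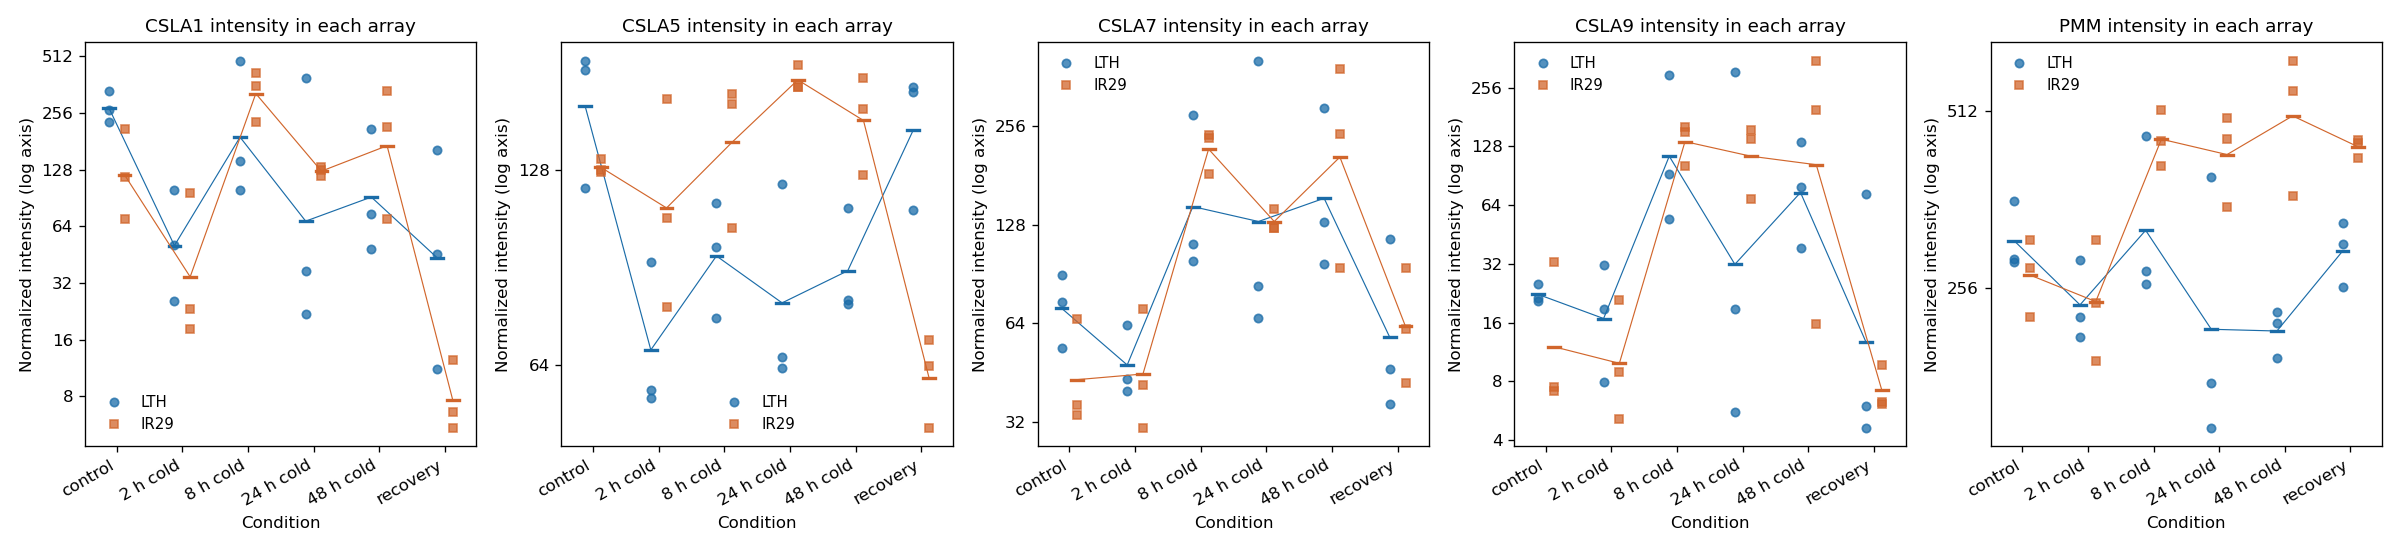
Normalized intensity (log axis, a different range in each panel) of the mannan synthase genes CSLA1, CSLA5, CSLA7 and CSLA9 and the phosphomannomutase gene PMM in each array by condition; circles are LTH, squares IR29, short bars the mean of log2 values of 3 arrays. In LTH at 24 h CSLA7 and CSLA9 show 1 array far above the other two (404 and 307), the array with the meristem marker sum of 268.

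Other wall genes showed mixed changes at 48 h. Of 26 expansin and XTH genes with probe sets, which loosen or remodel growing walls, 7 were called lower and none higher in LTH (26.9%, background 25.5%), and 3 lower and 1 higher in IR29 (15.4%, background 24.4%). The expansin gene EXPA2 went from a mean of 426 to 15.8 in LTH (log2 change -4.80, adjusted p = 5.2e-10) and from 333 to 50.6 in IR29 (-2.73, adjusted p = 1.2e-05). EXPB11 changed by -3.22 in LTH and -3.10 in IR29, and EXPB2 by -4.56 in IR29, whereas EXPA1 was higher in IR29 by 2.03 (adjusted p = 0.021). The arithmetic mean of EXPB2 in IR29 went from 206 to 32.9, a smaller fall than its log2 change gives, so its 48 h arrays were uneven. In recovery none of the 26 was called in LTH (background 2.56%), and 8 were lower and 1 higher in IR29 (34.6%, background 20.7%).

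Of 13 cellulose synthase and CSLF genes, none was called at 48 h in LTH (background 25.5%) and 2 were higher in IR29 (15.4%, background 24.4%), CESA6 (1.47) and CESA2 (1.38). CESA2 was dim, with an IR29 mean of 8.38 in the control and 18 at 48 h, where array medians lay between 9.81 and 11.16. In recovery 3 were lower in LTH (23.1%, background 2.56%), and 5 lower and 1 higher in IR29 (46.2%, background 20.7%). Among 11 endoglucanase genes, GLU1 was higher in LTH (1.18, adjusted p = 0.035) and in IR29 (2.65, adjusted p = 1.2e-05) at 48 h, GLU10 higher in LTH (1.25) and GLU15 lower in IR29 (-1.73), which makes 18.2% called in each genotype. GLU15 was also dim, with an IR29 mean of 14 in the control and 5.15 at 48 h, and was read by an x_at probe set. Recovery called none of these 11 in LTH and 3 higher and 1 lower in IR29 (36.4%, background 20.7%). Of the 2 pectin methylesterase inhibitor genes, PMEI28 rose in both genotypes at 48 h, by 2.96 in LTH (from a mean of 346 to 2680) and by 2.74 in IR29 (from 15.4 to 100), and PMEI8 was not called. Neither was called in recovery. PMEI28, like MAN7, was thus higher in the cold and not called after rewarming. It had a response difference between LTH and IR29 of 0.22 at 48 h (SE 0.46, adjusted p = 0.84). These lists were chosen with earlier results of the data known.

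Among 11559 probe sets with 1 gene whose group means spanned at least 2 on the log2 scale, those with group means most like MAN7 were probe sets of LOC4332250 (r = 0.985 and 0.982 over 12 groups) and LOC4333629 (r = 0.984). LOC4332250 had mean intensities of 39.3, 269 and 50.2 in LTH control, 48 h and recovery, and 41.5, 129 and 51.5 in IR29. LOC4333629 read 156, 614 and 148 in the same LTH groups, and 162, 274 and 165 in those of IR29. Both rose in the cold and returned on rewarming, over a smaller range than MAN7. The closest to MAN1 were LOC4345902, LOC4332502 and LOC4326674 (r = 0.963, 0.962 and 0.962), each lowest in IR29 recovery among the control, 48 h and recovery groups. The closest to MAN4 were LOC4330953 (0.943 and 0.920, from a pair of probe sets that share a name stem) and LOC4339731 (0.917). The annotation gives no name to these genes, and such likeness over 12 groups that share arrays is a description only.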

How the data were processed

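Total RNA of rice leaves was hybridized to Affymetrix rice genome arrays. Per the study's methods, the authors read the scans in GCOS and put the arrays on a common scale in dChip. Their deposited table holds linear intensity values of 57258 probe sets on 36 arrays. The dChip settings were not given in the sources used here. Before log2, the 20 values under 1 were raised to 1. Medians of the arrays lay between 9.81 and 11.16, so no further normalization was applied. Background cannot be read from these values, and 3 arrays per group limit the precision.

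Groups followed the sample labels. A limma model (version 3.58.1, R 4.3.3) of the 12 group means was moderated by eBayes with an intensity trend, with 24 residual degrees of freedom, and 32 contrasts were tested. P-values were adjusted by Benjamini-Hochberg over all probe sets within a contrast. Calls needed an adjusted p below 0.05 and at least 2-fold. Genes were named through the platform table and a RefSeq gene table of assembly ASM3414082v1, which tied 22436 probe sets to 1 gene, 95 to several and 34727 to none. A gene of a list was read by its brightest probe set. Lists defined by gene descriptions hold no gene, because the annotation used has no descriptions.

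All members were named. For each member called against a control, the 3 probe sets of other genes with the most similar group means were named, and from the lists all mannan and mannose genes and up to 3 genes per direction called at 48 h. The members and lists were chosen with earlier results of these data known. The steps between neighbouring times and the genotype difference in rewarming were added after the values were seen. Alternatives covered quantile normalization, median centring, a higher floor (20th percentile), a filter on the dimmest 40% of probe sets, no trend, only the groups compared, a replicate block, no fold minimum, the methods' t-test with and without adjustment, single arrays left out and, added later, meristem markers as a covariate and 3 LTH arrays left out together. No clear pairing by replicate number was seen. Of 198 pairs with a shared number, 32 had deviations correlated above 0.1 (median -0.00, and 0.00 for pairs of other numbers). This does not exclude pairing: plates were the study's replicates, and whether a number stands for the same plate is not given.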

Additional observations from a re-analysis of the deposited data

Results flagged for a closer look

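Differences between the genotypes in the same contrast passed the test of the difference for MAN7 and MAN6. For MAN7 the LTH response exceeded the IR29 response, with log2 differences of 2.29 (8 h), 3.14 (24 h) and 3.62 (48 h; adjusted p = 0.00056, 7.4e-06 and 4.6e-07, limma), beside an LTH minus IR29 difference of -0.28 in the controls. In rewarming, from 48 h of cold to recovery, the LTH change of MAN7 minus that of IR29 was -3.21 (adjusted p = 2.6e-07).

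For MAN6 the LTH response exceeded the IR29 response by 1.01 at 48 h (adjusted p = 0.0016), where all 3 LTH arrays lay above and all 3 IR29 arrays below their controls. The rewarming change of MAN6 in LTH minus that in IR29 was -1.64 (adjusted p = 6.4e-07). Smaller MAN6 differences at 24 h (0.74, adjusted p = 0.026) and in recovery (-0.64, adjusted p = 0.047) passed the p threshold without reaching 2-fold. Groups of 3 arrays were too small for a test of single outlying arrays.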

How the results depend on the processing

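Of the 128 changes of the 4 genes, median centring, a higher floor (20th percentile), a filter on the dimmest 40% of probe sets and a fit without the intensity trend changed no call. Quantile normalization put the MAN6 response difference at 48 h at 0.92, under 2-fold, and called the MAN7 step from 8 to 24 h in IR29 (1.21, adjusted p = 0.033). The replicate block changed no call either, with 7 higher and 3 lower calls in chilling against control as without it. For 17 of 36 arrays the mean correlation of deviations was highest with the arrays of their own number in other groups. Over all alternatives without single arrays left out, 1422 of 1488 values kept their call, and 27 of the 1101 values uncalled there and in the reported fit changed sign. The 1 called reversal was MAN1 in IR29 at 8 h, -1.83 with the meristem covariate. Each member had 1 probe set, so a choice among probe sets was not possible.

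Counts of calls moved as follows. Chilling higher (7) became 4, chilling lower (3) became 1, recovery lower (3) became 1, genotype difference higher (3) became 0, course higher (3) became 0 and steps higher (2) became 0 with the adjusted methods' t-test, and chilling lower became 1 also unadjusted. That test uses 3 arrays against 3 with no shared spread. Without a fold minimum chilling lower became 10, recovery higher (0) became 1, genotype difference became 6 higher and 1 lower (3 and 0), and response difference lower (0) became 1. With only the groups compared, steps higher became 0 and rewarming difference higher (0) became 1. The meristem covariate gave 5 for chilling lower, 1 for genotype difference lower and 1 for rewarming difference higher. Leaving out the 3 LTH arrays with the highest marker sums gave 5 for chilling lower, 2 for genotype difference lower, 1 for response difference lower and 1 for rewarming difference higher; these added calls were of MAN1. Leaving out these arrays also called the MAN7 step from 2 to 8 h in LTH (1.27, adjusted p = 0.025) and MAN1 lower in LTH recovery. It ended the call of MAN4 in LTH recovery (-0.98, adjusted p = 0.058) and of the MAN7 step from 24 to 48 h (0.98, adjusted p = 0.04). With single arrays left out, chilling counts ranged from 6 to 7 higher and 2 to 4 lower, recovery from 0 to 0 and 2 to 4, genotype difference from 3 to 4 and 0 to 1, response difference from 3 to 4 and 0 to 1, course from 3 to 3 and 3 to 3, steps from 1 to 2 and 0 to 1, and rewarming difference from 0 to 1 and 2 to 2. By Spearman in place of Pearson, 2 of the 3 most similar probe sets of MAN1 and of MAN7 and 0 of the 3 of MAN4 were shared. The causes were not tested. No background estimate was held, so which low intensities lay above background cannot be said.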
